A study of Homo sapiens with 4 samples.

Results

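Uracil2 and Uracil3 are a pair of the synthetic DNA hairpins read by Haircut, a single-cell assay of DNA repair. A hairpin that carries a lesion is offered to the enzymes of each cell, and cutting moves the place where its strand ends. Each strand end is counted by unique molecular identifiers (UMIs, tags that mark single molecules) at 61 positions per hairpin. The members are every position of both names, 122 of the 549 repair features, which cover 9 hairpins in all. The chemistry behind the numbers in these names, the place of the lesion and the hairpins' sequences were not given in the sources used here.

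Uracil in DNA arises when deoxyuridine is built in during replication or when cytosine loses its amino group. Uracil glycosylases such as UNG cut the base from its sugar and leave an abasic site, which the endonuclease APEX1 then nicks so that a polymerase and a ligase can fill and seal the gap. UNG is known for its activity around DNA replication, while TDG and MBD4 act on mismatched bases.

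The cells came from the breast lobular carcinoma line MDA MB 134VI, which is long established and labelled wild type, and they were grown without hormone before treatment. Both groups were from that line: vehicle cells received 0.01% ethanol and estradiol cells received 100 nM estradiol, an estrogen, each for 24 h. There was 1 library per treatment and assay, so no difference below has a replicate check and none was tested. The intervals are exact 95% intervals that cover counting error only and treat each UMI as independent.

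The repair libraries held 4940 vehicle cells and 3367 estradiol cells, with medians of 930 and 1311 repair UMIs per cell and 4738500 and 4479977 repair UMIs in all. Of the cell barcodes, 4 occurred in both libraries. All 7 luminal epithelial markers were detected in each library, summing to 5697 and 6955 CPM, UMIs scaled to the library's total over the plain gene rows. All 4 basal and all 3 fibroblast markers were at 0, and the immune and endothelial lists summed to under 1 CPM. The phase and the cluster of each cell were those the authors deposited, with 2493 G1, 773 S and 1674 G2M cells in vehicle and 1163, 977 and 1227 in estradiol.

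The pair differed mostly in how much of each was read. Uracil2 gave 325495 UMIs in vehicle and 324385 in estradiol, or 6.87% and 7.24% of all repair UMIs. Uracil3 gave 44615 and 44258, or 0.942% and 0.988%. A median cell held 64 and 95 Uracil2 UMIs but only 8 and 12 Uracil3 UMIs, and 34 vehicle and 11 estradiol cells had no Uracil3 UMI. Every single-cell statement on Uracil3 is therefore coarse, and its values are given as sums over cells.

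Both hairpins ended most often at position 20. So did the hairpin named Normal, with 23.1% of its UMIs there in vehicle and 25.8% in estradiol, so this main end was not particular to the pair. On Uracil2 this position held 19.7% of the hairpin's own UMIs in vehicle and 20.7% in estradiol. It was followed by position 16 (16.4% and 16.5%), position 17 (11.3% and 10.8%) and position 45 (10.8% and 10.6%). Positions 13, 8, 15, 18, 9 and 14 completed the 10 most used, each with 2.65% to 5.29%. On Uracil3 position 20 held 13.5% and 14%, position 14 held 13.3% and 13.8%, and position 16 held 13% and 13.4%. Position 21 followed with 10.5% and 11.3% and position 45 with 8.17% and 8.96%, ahead of positions 6, 25, 8, 12 and 27. Uracil2 was the more concentrated, since 15 positions held 90% of its UMIs in each library against 21 and 20 positions of Uracil3. The ends of the hairpins carried little: position 1 held 0.192% and 0.153% on Uracil2 and 0.197% and 0.208% on Uracil3, and position 61 had 1 and 3 UMIs on Uracil2 and 6 and 4 on Uracil3.

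The profiles shared only part of their shape. The total variation distance, the share of a profile that would have to move to give the other, was 0.398 in vehicle and 0.383 in estradiol. That was the smallest of the 36 pairs of hairpins in each library. It was far above the distance of a hairpin from itself between treatments, which was 0.0326 for Uracil2 and 0.0393 for Uracil3.

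The largest contrasts between the pair lay before the window. Position 17 held 14.9 times the share on Uracil2 that it held on Uracil3 in vehicle (interval 13.4 to 16.6) and 12.3 times in estradiol (11.1 to 13.6). Positions 18 and 9 were also higher on Uracil2, by 6.17-fold and 7.23-fold and by 5.00-fold and 4.90-fold. In the other direction, position 25 held 32.7 times the share on Uracil3 in vehicle and 23.3 times in estradiol, position 27 held 25.6 and 23.9 times, and position 6 held 15.4 and 14.5 times. These 6 are the extremes of 26 positions with at least 500 UMIs on each hairpin over both libraries, ranked by the geometric mean of the libraries.

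By stretches of the hairpin, a split made after the profiles were seen, the pair divided into a common bulk and separate flanks. Positions 8 to 21 held 77.6% of Uracil2 and 65.9% of Uracil3 UMIs in vehicle. Uracil3 had 7.64% in positions 1 to 7, where Uracil2 had 0.837%, a ratio of 9.12 in vehicle and 9.19 in estradiol. Positions 22 to 43 held 14.9% of Uracil3 and 4.65% of Uracil2, a ratio of 3.21 and 3.34. Positions 51 to 61 held 1.30% and 1.57%. Normal had 71.7% of its UMIs in positions 8 to 21 in vehicle, 8.25% in positions 1 to 7 and 19.9% in positions 22 to 43. Neither the bulk nor the shares of Uracil3 in positions 1 to 7 and 22 to 43 were thus particular to the pair.

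A separate peak stood at positions 44 to 50, called the window below. The hairpin named Normal had 0.113% of its UMIs in the window in vehicle and 0.102% in estradiol. Uracil2 had 15.3% (15.2% to 15.4%) and 15.4% (15.3% to 15.6%), and Uracil3 had 10.2% (9.94% to 10.5%) and 11.5% (11.2% to 11.8%). The Uracil2 share was thus 1.5 times that of Uracil3 in vehicle and 1.34 times in estradiol, with intervals of 1.45 to 1.55 and 1.31 to 1.38. Higher window shares than those of the pair stood on Uracil1, with 27.45% and 28.04%, and on Abasic, with 63.77% and 57.85%. Lower ones stood on GU, with 7.214% and 8.480%, and on riboG, with 6.128% and 5.997%. CI had 0.134% and 0.117%, and TI had 0.253% and 0.212%. A large window share was therefore not particular to the pair.

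Inside the window, position 45 dominated on both hairpins. It held 70.2% and 68.5% of the Uracil2 window UMIs and 80.0% and 77.9% of those of Uracil3. Position 46 came next with 12.8% and 13.1% on Uracil2 and 8.09% and 8.45% on Uracil3. Positions 47, 48, 49 and 50 each held 3.91% to 4.96% on Uracil2. On Uracil3 position 47 held 5.07% and 6.55%, and positions 48, 49 and 50 held 1.3% to 2.76%. Position 44 had under 1% of either window. The Uracil2 window was spread further beyond position 45 in G2M cells: position 45 held 74.1% in G1, 71.5% in S and 64.9% in G2M in vehicle, and 71.6%, 69.3% and 65.3% in estradiol. On Uracil3 the same shares were 81.3%, 81.2% and 77.9%, and 79.1%, 80.5% and 74.5%.

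Between treatments, each hairpin's share of all repair UMIs was slightly higher in estradiol. The ratio was 1.054 (1.049 to 1.059) on Uracil2 and 1.049 (1.036 to 1.063) on Uracil3. The pooled Uracil2 window was close, and the pooled Uracil3 window was higher in estradiol. The estradiol to vehicle ratio of the window share was 1.007 (0.995 to 1.020) on Uracil2 and 1.124 (1.080 to 1.170) on Uracil3. It was 1.175 (1.163 to 1.188) on GU and 1.021 (1.013 to 1.030) on Uracil1. On the remaining hairpins it was below 1, from 0.837 on TI to 0.979 on riboG. The makeup of the libraries differed as well, since S cells were 773 of 4940 in vehicle and 977 of 3367 in estradiol. Within each phase the Uracil2 ratio was below 1: 0.989 (0.968 to 1.010) in G1, 0.945 (0.922 to 0.969) in S and 0.983 (0.964 to 1.004) in G2M. With equal weight to each phase it was 0.970. The Uracil3 ratio was 1.072 (0.996 to 1.153) in G1, 1.008 (0.935 to 1.087) in S and 1.077 (1.009 to 1.150) in G2M, and 1.045 with equal weight to each phase. The pooled Uracil3 difference was therefore larger than that found inside any phase, and the pooled Uracil2 ratio lay on the other side of 1 from its phases.

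Single positions were also compared between treatments, and most did not pass the fold used here. Among positions with at least 500 UMIs over both libraries, 45 of Uracil2 and 27 of Uracil3, a share of all repair UMIs at least 25% higher in estradiol than in vehicle, or the same fold lower (at least 20% lower), was taken as a call. Of these 72 positions 4 were higher in estradiol, namely 21, 25 and 54 of Uracil2 and 47 of Uracil3, beside 3.08% of all 390 repair positions. Lower were 6, namely 2, 32, 33 and 34 of Uracil2 and 7 and 33 of Uracil3, beside 3.08%. The median ratio was 1.04 for Uracil2, 1.05 for Uracil3 and 1.00 for all 390. On the share of each hairpin's own UMIs 3 members were higher and 11 lower, beside 2.82% and 4.36%.

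On the share of own UMIs, the highest Uracil2 ratio was at position 21, which held 1.16% of the hairpin in vehicle and 1.68% in estradiol, 1.45-fold higher (1.39 to 1.51). Position 54 was 1.31-fold higher (1.17 to 1.47) and position 25 was 1.23-fold higher (1.08 to 1.39). Position 34 held 0.743% in vehicle and 0.502% in estradiol, a ratio of 0.675 (0.633 to 0.719). Position 33 beside it held 0.684% and 0.472%, a ratio of 0.690 (0.647 to 0.737), and position 2 had a ratio of 0.729 (0.639 to 0.830). On Uracil3 the highest ratios were at position 47 (1.45, 1.22 to 1.73), which lies in the window, position 46 (1.17, 1.02 to 1.35) and position 17 (1.16, 1.00 to 1.35). The lowest were at position 7 (0.732), position 33 (0.760) and position 6 (0.784). Position 33 was thus lower in estradiol on both hairpins. This was not particular to the pair. On Normal it held 1.81% in vehicle and 1.61% in estradiol in G1 cells, 1.67% and 1.47% in S and 1.43% and 1.35% in G2M. Within phases it was lower in estradiol on the other hairpins too, except on riboG in G2M, with 2.01% and 2.05%.

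Window shares were highest in S phase. In vehicle the Uracil2 window held 14.9% in G1, 19.4% in S and 14.2% in G2M, and in estradiol 14.7%, 18.3% and 13.9%. The Uracil3 window held 9.14%, 15.1% and 9.45%, and in estradiol 9.79%, 15.2% and 10.2%. S cells were the highest on both hairpins in both libraries, while G1 and G2M lay within 1 percentage point of each other. The S to G1 ratio was 1.30 (1.27 to 1.33) and 1.245 (1.22 to 1.27) on Uracil2 and 1.65 (1.53 to 1.78) and 1.55 (1.45 to 1.67) on Uracil3. The intervals of the pair did not overlap, but they cover counting error only, and the difference between the hairpins was not tested. As means over cells with at least 20 UMIs of the hairpin, the ratio was 1.298 and 1.244 on Uracil2 and 1.322 and 1.414 on Uracil3. The Uracil3 means rested on 48 G1 and 30 S cells in vehicle and on 107 and 145 in estradiol. On Normal the ratio was 1.22 (0.983 to 1.51) in vehicle and 0.905 (0.730 to 1.12) in estradiol, from 300 and 194 window UMIs in G1. The pooled window ratio was 1.268 and 1.237 on Uracil1 but 0.982 and 0.965 on Abasic. At position 45 alone the ratio was 1.54 and 1.46 on GU, and 0.796 to 0.947 on riboG and TI. On CI, from 67 and 25 UMIs in G1, it was 0.856 and 1.26. The S peak was thus not particular to the pair, since these Uracil1 and GU shares were also highest in S.

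Depth differed between phases, with medians of 830, 962 and 1107 repair UMIs per G1, S and G2M cell in vehicle and 1179, 1286 and 1465 in estradiol. S cells had intermediate depth and the highest window shares, and the part of depth in these shares was not tested. In 4 equal groups of cells by depth, a split added after the phase values were seen, the S to G1 ratio lay between 1.19 and 1.40 on Uracil2 and between 1.47 and 1.78 on Uracil3 in all 16 combinations of hairpin, library and depth group. Within clusters that held at least 50 cells of each phase it was 1.09 to 1.26 on Uracil2. On Uracil3 it was 1.26 to 1.53 in clusters 1 and 3 of each library, and in cluster 2 of vehicle 1.04 with an interval of 0.659 to 1.57.

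More positions than those of the window followed phase on Uracil2. With at least 500 UMIs in G1 and S cells together, 13 of 27 positions were at least 25% higher in S than in G1 in vehicle, beside 16.3% of 306 repair positions, and 4 were at least 20% lower, beside 5.88%. In estradiol 10 of 27 were higher, beside 13.7% of 307, and 4 were lower, beside 4.23%. Positions 46, 48, 49, 50 and 52 were among the higher in both libraries, and so were 10, 18, 19, 21 and 23. On Uracil3, 1 of 11 positions was higher in vehicle and 1 of 10 in estradiol, position 45 each time. Positions 8 and 25 of Uracil3 were lower in vehicle.

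Those positions did not all have the same order of phases. Window shares peaked in S, but position 21 of Uracil2 was highest in G2M: 0.458% in G1, 1.28% in S and 1.87% in G2M in vehicle, and 0.772%, 1.62% and 2.40% in estradiol. Position 18 had the same order, with 2.34%, 4.02% and 5.35% and then 2.58%, 4.42% and 5.64%. Position 13 ran the other way, with 7.0%, 4.70% and 3.66% and then 7.23%, 4.78% and 3.72%. Position 20, the main end, varied little, at 19.6%, 18.1% and 20.4% and then 21.1%, 19.6% and 21.1%. Within each phase position 21 was still higher in estradiol, by 1.69-fold (1.52 to 1.88) in G1, 1.26-fold (1.15 to 1.39) in S and 1.28-fold (1.22 to 1.35) in G2M. The S to G1 ratio of position 21 was 2.80 and 2.10 on Uracil2, and 1.09 and 1.01 on Uracil3, where it is a main end. On the other 8 hairpins together it ran from 0.812 to 1.23.

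Positions 33 and 34 of Uracil2 were highest in G1. Position 33 held 0.962% in G1, 0.396% in S and 0.495% in G2M in vehicle, and 0.722%, 0.327% and 0.388% in estradiol. Position 34 held 1.02%, 0.381% and 0.591%, and 0.739%, 0.327% and 0.448%. Their S to G1 ratios were 0.412 and 0.454, and 0.375 and 0.443. At position 34 the ratio was 0.644 and 0.557 on Uracil3 and 0.448 and 0.519 on Uracil1, against 0.794 to 0.992 on GU, riboG, CI, TI and Normal. Abasic had too few UMIs there to give one. Inside phases, position 33 of Uracil2 remained lower in estradiol, with ratios of 0.750 in G1, 0.826 in S and 0.784 in G2M.

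Across the 8 deposited clusters the window of both hairpins was highest in cluster 1 and lowest in cluster 7, in both libraries. On Uracil2 the shares were 19.9% and 10.4% in vehicle, a 1.91-fold span (1.82 to 2.0), and 17.5% and 9.91% in estradiol, a 1.76-fold span (1.67 to 1.87). On Uracil3 they were 15.4% and 5.30%, a 2.90-fold span (2.43 to 3.49), and 13.3% and 5.44%, a 2.44-fold span (1.97 to 3.05). Clusters 3 and 0 stood above the middle on both hairpins, at 17.1% and 16.0% of Uracil2 and 12.7% and 11.8% of Uracil3 in vehicle. Clusters 2 and 4 were low, at 13.1% and 12.5% of Uracil2 and 6.91% and 6.72% of Uracil3. Cluster 5 came next to cluster 1 on Uracil2 in vehicle with 17.4%, but on Uracil3, with 10.5%, it stood below clusters 3 and 0. How the clusters were made was not given in the sources used here, and clusters 2 and 6 held only 82 and 79 estradiol cells against 1150 and 626 vehicle cells. The clusters also differed in phase. In cluster 1, S cells were 419 of 600 in vehicle and 545 of 904 in estradiol. Cluster 7 held 127 G1 and 221 G2M cells of 351 in vehicle, and 73 and 98 of 173 in estradiol. The part of phase in the spans and relations over clusters was not tested. Position 21 of Uracil2 followed another pattern over clusters, with 1.74% to 2.41% in clusters 0, 3 and 4 and 0.258% to 0.873% in clusters 1, 2, 5, 6 and 7. In vehicle, G2M cells were 773 of 946 in cluster 0, 482 of 482 in cluster 4 and 149 of 421 in cluster 3.

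The window shares of the pair moved together over clusters. Pearson's r was 0.960 in vehicle and 0.963 in estradiol (Spearman's rho 0.929 and 0.952), over 8 clusters whose points share a library and its cells. Between Uracil2 and Uracil1, the remaining hairpin named for uracil, r was 0.934 and 0.967. With the Abasic window it was -0.110 and -0.107. These belong to 44 relations over clusters, with the pair counted from either side, and 10 over cells, given as descriptions. Over single cells with at least 20 UMIs of each hairpin, Spearman's rho between the Uracil2 and Uracil1 shares was 0.626 (4812 cells) and 0.677 (3342 cells). Between Uracil2 and Uracil3 it was 0.334 (212 cells) and 0.50 (551 cells), the cells of greatest depth.

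Single cells spread widely in the Uracil2 window. Among cells with at least 20 Uracil2 UMIs, 4824 in vehicle and 3347 in estradiol, the median share was 13.9% and 14.3%. The middle of the distribution, from the first to the last quartile, ran from 9.64% to 19.1% and from 10.3% to 18.8%. The SD over cells was 9.53 and 9.34 percentage points, beside 4.76 and 3.95 for counting alone, so the intervals on pooled shares are narrower than the spread of cells would give. S cells had a median of 18.4% in vehicle and 17.3% in estradiol, against 13.2% and 13.3% in G1. Above 50%, a limit chosen after values were seen, were 63 cells in vehicle and 49 in estradiol. Their medians of 525 and 839 repair UMIs were below those of all cells, and the part of depth in them was not tested.

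The genes of uracil repair were read in the same cells, in the deposited rows that carry plain gene symbols. UNG, the main uracil glycosylase of the nucleus, stood at 27.3 CPM in vehicle (23.6 to 31.5) and 40.4 CPM in estradiol (35.5 to 45.9), a ratio of 1.48 (1.22 to 1.8). SMUG1, another uracil glycosylase, had 24.6 and 24.1 CPM, TDG had 107 and 112 CPM, and MBD4 had 66.8 and 69.7 CPM. APEX1, the endonuclease of the next step, had 172 and 183 CPM. Of 14 genes of base excision repair and dUTP removal, 6 were at least 25% higher in estradiol, beside 13.7% of 10977 genes, and 0 were at least 20% lower, beside 18.2%. The other 5 higher genes were DUT, which removes dUTP, the flap endonuclease FEN1, the ligase LIG1, the sliding clamp PCNA and the strand-break sensor PARP1, with ratios of 1.28 to 1.35. These pooled ratios also hold the different share of S cells, 773 of 4940 in vehicle and 977 of 3367 in estradiol. Within S cells DUT stood at 514 and 513 CPM, FEN1 at 218 and 205, PCNA at 288 and 279, LIG1 at 113 and 114 and PARP1 at 429 and 465. Within G1 cells DUT stood at 139 and 168 CPM, FEN1 at 42.0 and 53.9, PCNA at 58.9 and 70.0, LIG1 at 37.0 and 45.8 and PARP1 at 291 and 399.

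By phase, UNG stood at 19.3 CPM in G1, 79.1 in S and 16.5 in G2M in vehicle, and at 31.2, 85.2 and 16.6 CPM in estradiol. UNG and the window shares of both hairpins were thus highest in S in each library. The S to G1 ratio of UNG was 4.09 (2.90 to 5.82) and 2.73 (2.0 to 3.77). It is a ratio of mRNA levels, a measure unlike a window share, so its size cannot be ranked against the window ratios. Among the 14 genes 8 were at least 25% higher in S than in G1 in vehicle, beside 20.5% of 8263 genes, and 2 were lower, TDG and POLB, beside 20.6%. In estradiol 6 were higher, beside 19.2% of 7734 genes, and the same 2 genes were lower, beside 16.9%. The POLB ratio was 0.790 (0.448 to 1.33) and 0.622 (0.361 to 1.05), from 19 and 24 UMIs in S, and both intervals include 1. PCNA, FEN1 and UNG are in widely used lists of S phase genes, and which genes the authors' phase calls used was not given in the sources used here. Over clusters UNG was highest in cluster 1, at 85.3 and 79.3 CPM, where the windows were highest too, and cluster 7 had 13.6 and 14.6 CPM from 5 and 3 UMIs. Pearson's r between UNG and the Uracil2 window over the 8 clusters was 0.788 and 0.657, and with Uracil3 it was 0.824 and 0.662. In estradiol the UNG values of clusters 2, 6 and 4 rested on 1, 2 and 5 UMIs. For TDG r was -0.735 and -0.345 with Uracil2 and -0.846 and -0.246 with Uracil3. For SMUG1, MBD4 and APEX1 it ran from -0.204 to 0.522 over both hairpins and libraries. Neither the part of UNG in the windows nor that of the phase makeup of the clusters was tested.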

How the data were processed

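Uracil2 and Uracil3 were read in 1 vehicle and 1 estradiol Haircut library of MDA MB 134VI cells. The deposited matrix holds natural log values, 1 column per cell, for which the base, the scale of 10000 and the scaling to the cell's own block of rows were found from the values. The authors deposited counts of repair and RNA UMIs per cell beside it, with the treatment, cluster and phase of each cell. The submitters' processing notes name UMI-tools 0.5.3, SAMtools, the aligner Bowtie2 2.3.2, the trimmer cutadapt 1.8.3, Cell Ranger 3.0.2 and the build hg38. What each tool was applied to, and how cells were filtered or doublets treated, were not given in the sources used here. No cell was removed and no doublet caller was run.

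The log values were turned back into UMIs, and 100% of those above 0 were whole within 1e-06. Their sums equalled the deposited repair totals in 100% of 8307 cells. UMIs were summed over cells of a library, phase or cluster, and a share was the UMIs of a position or of the window of positions 44 to 50 over the UMIs of its own hairpin. Shares have Clopper-Pearson intervals and ratios have exact conditional intervals, computed with Python 3.11.15, numpy 2.4.6, scipy 1.17.1 and pandas 2.3.3. The scripts were tested on simulated data. With 1 library per treatment no test was run.

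A position was called at 25% higher or 20% lower with at least 500 UMIs over both libraries, and a gene with at least 50. Named positions were the 10 of most UMIs, the window, positions 1 and 61, and the 3 highest and lowest in each ratio. The rule did not say which ratio, so own shares were ranked. Position 23 and the comparison of single positions over phases, clusters and hairpins were chosen after values were seen. The hairpins, lists and rules were chosen with earlier results of these data known. Alternatives changed the window, the denominator, the cells, the depth, the weights of phases and clusters and the count minimum.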

Additional observations from a re-analysis of the deposited data

Results flagged for a closer look

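The window ratio of estradiol to vehicle pointed both ways among the clusters, and whether the clusters differ in it was not tested. On Uracil2 it was above 1 only in cluster 6, at 1.056 (0.986 to 1.129), an interval that includes 1 and rests on 79 estradiol cells. It was 0.976 (0.952 to 0.9997) in cluster 0, 0.879 (0.855 to 0.904) in cluster 1, 0.985 (0.909 to 1.065) in cluster 2 and 0.949 (0.920 to 0.979) in cluster 3. It was 0.928 (0.888 to 0.969) in cluster 4, 0.825 (0.788 to 0.863) in cluster 5 and 0.95 (0.888 to 1.017) in cluster 7.

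On Uracil3 it was below 1 in cluster 1, at 0.864 (0.788 to 0.947), and in cluster 5, at 0.846 (0.715 to 1.00). The other 6 were above 1, all with intervals that include 1: 1.001 in cluster 0, 1.020 in cluster 2, 1.015 in cluster 3, 1.139 in cluster 4, 1.245 in cluster 6 and 1.027 in cluster 7. Cluster 1, where the window of both hairpins was highest, and cluster 5 had ratios below 1 on both hairpins.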

How the results depend on the processing

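Over 16 results and 114 values under alternatives, 78 stayed within their limits, 36 moved and 0 of the called directions turned. Many of these values could not turn, so the 0 says little about them. The cluster spans took the highest and the lowest cluster anew in each setting and could not fall below 1. Counts of positions and profile distances had no direction. The Uracil2 treatment ratio was not a called direction, because its main interval included 1, and it fell on either side of 1. The S to G1 ratio was above 1 in 32 of 32 alternatives and the Uracil2 to Uracil3 ratio in 16 of 16. No paired analysis was possible because each treatment had 1 library per assay. Depth limits Uracil3 most, since its means over cells with at least 20 UMIs rest on 212 vehicle and 551 estradiol cells. The limit of 500 repair UMIs left out 365 and 77 cells. Counting intervals do not hold the spread between cultures.

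The Uracil2 treatment ratio depended on the setting: it was 0.984 for position 45 alone, 1.062 as a share of all repair UMIs, 1.020 without position 20, 1.045 with cells thinned to 500 UMIs, 0.970 with equal weight to phases and 0.939 with equal weight to clusters. The Uracil3 treatment ratio was 1.180 as a share of all repair UMIs, 1.053 as a mean over cells, 1.045 with equal weight to phases and 1.002 with equal weight to clusters. The Uracil2 to Uracil3 ratio was 1.316 in vehicle and 1.181 in estradiol for position 45 alone, 10.9 and 9.85 as shares of all repair UMIs, 1.614 and 1.457 without position 20, and 1.394 in vehicle as a mean over cells. The S to G1 ratio of Uracil2 was 1.255 and 1.205 for position 45 alone, 1.383 and 1.292 as shares of all repair UMIs, and 1.339 in vehicle with thinned cells. That of Uracil3 was 1.839 in vehicle as a share of all repair UMIs, and 1.322 and 1.414 as means over cells. The span of clusters was 1.817 on Uracil2 in vehicle without position 20. On Uracil3 it was 3.068 in estradiol as a share of all repair UMIs, and 7.82 and 5.97 as means over the few cells of enough depth. Positions called between treatments were 7 higher and 11 lower with a count minimum of 100, and 1 and 2 with 2000, where fewer positions were tested. The share of all repair positions called at these 2 minima was not computed, so these counts have no background beside them. On own shares 11 were lower, beside 4.36% of 390 repair positions. The profile distance was 0.450 and 0.433 without position 20. Elsewhere the cause of these moves was not tested.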
